A study of Mus musculus with 8 samples.

Results

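The leukocyte miRNAs described here are mmu-miR-142a-3p, mmu-miR-142a-5p, mmu-miR-223-3p, mmu-miR-146a-5p, mmu-miR-150-5p, mmu-miR-155-5p and mmu-miR-342-3p, where mmu stands for the mouse and is left out where a name recurs. They were chosen by name, as mature miRNAs known from white blood cells, and all probes carrying these names were read. They make up 7 of the 1881 mouse miRNAs on the array. Signals came from 8 single-colour Agilent miRNA arrays of embryonic footpad skin, 2 in each of 4 groups. The groups were Dicer conditional knockout (cKO) at stage E16.5 (days of embryonic development), wild type (WT) at E16.5, cKO at E17.5 and WT at E17.5. All embryos were on a C57BL6 background, and each array held RNA from a pool of footpads of 3 to 5 embryos, so that p-values measure the spread between pools and not between single embryos. The labels give neither the promoter that drove the deletion nor the cells that lost Dicer, and the arrays do not measure Dicer mRNA. In whole skin, a change in the number of cells of a type and a change in the amount of a miRNA per cell cannot be told apart.

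Dicer cuts precursor hairpins into mature miRNAs, which guide Argonaute proteins to complementary sites in messenger RNAs, mostly through the bases called the seed. miR-142a is made throughout the blood lineages, and both arms of its hairpin are in use there. miR-223-3p is a miRNA of neutrophils and other myeloid cells. miR-146a-5p is induced by NF-κB and damps signalling from Toll-like receptors. miR-150-5p is abundant in mature lymphocytes, and miR-155-5p appears when lymphocytes and macrophages are activated. miR-342-3p is made from an intron of Evl, an actin regulator gene, and is abundant in blood cells without being restricted to them. Embryonic skin holds macrophages, which settle there early in development.

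Mature sequences were available for 6 of the 7 miRNAs (RefSeq, GRCm38.p6). They are shown with the seed, bases 2 to 8 from the 5′ end, in capitals, because miRNAs with one seed can share targets.
miR-342-3p: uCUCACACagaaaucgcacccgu
miR-223-3p: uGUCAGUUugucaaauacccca
miR-142a-3p: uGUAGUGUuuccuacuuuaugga
miR-142a-5p: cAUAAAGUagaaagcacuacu
miR-146a-5p: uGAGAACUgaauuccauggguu
miR-155-5p: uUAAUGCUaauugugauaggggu
No seed was shared among these 6. Of the other mature miRNAs in the RefSeq table, miR-146b-5p alone carried the seed of one of them, that of miR-146a-5p.
miR-146b-5p: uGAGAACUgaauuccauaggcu
miR-146a-5p and miR-146b-5p were alike at 20 of 22 positions and differed by G18A and U21C, counted from the 5′ end with the base of miR-146a-5p first. miR-146b-5p was detected on none of the 8 arrays (0 of 8).

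The mature miR-342-3p lies at chr12:108658680-108658702 on the plus strand, within Evl. miR-142a-5p (chr11:87756867-87756887) and miR-142a-3p (chr11:87756903-87756925) come from the plus strand of the same hairpin, whose span also holds Mir142b on the opposite strand. miR-223-3p lies at chrX:96242884-96242905 on the plus strand, within F630028O10Rik. miR-146a-5p lies at chr11:43374435-43374456 on the minus strand and miR-155-5p at chr16:84714143-84714165 on the plus strand, within Mir155hg. The hairpins of miR-342 and miR-142a are shown with both mature arms in capitals. For each of them the 3p arm was detected on all 8 arrays and the 5p arm was not, which held for miR-223 as well.
Mir342: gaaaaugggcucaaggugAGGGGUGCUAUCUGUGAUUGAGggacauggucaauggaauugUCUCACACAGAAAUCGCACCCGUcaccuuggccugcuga
Mir142: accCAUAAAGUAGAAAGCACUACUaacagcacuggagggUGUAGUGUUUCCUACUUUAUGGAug
In Mir342 the first capitals are miR-342-5p and the second miR-342-3p. In Mir142 they are miR-142a-5p and miR-142a-3p.

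Arrays were scaled to their own 75th percentile, taken over 474 probes that every array detected, and levels are given as percent of that percentile or as its log2. The number of miRNAs detected per array was between 279 and 384. The second replicate of both E16.5 groups stood apart with 281 in cKO and 279 in WT, against 365 in cKO and 367 in WT for the first. In these second replicates the dimmest detected probe lay at −3.57 in cKO and −3.67 in WT on the log2 scale, against −4.40 in cKO and −4.66 in WT for the first replicates, so that dim miRNAs could be missed there. Values under a floor of 5.28% (−4.24 on the log2 scale) were set to the floor. Replicates correlated at r = 0.997 to 0.999 over the miRNAs tested. Each group filled 1 column of the slide, and slide position and group cannot be told apart. The skin itself was present in the signal: 7 of 7 epithelial and 6 of 6 dermal mesenchyme marker miRNAs were detected.

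Of the 7 leukocyte miRNAs, 3 were detected on all 8 arrays (miR-342-3p, miR-223-3p and miR-142a-3p), 2 on some of them (miR-146a-5p and miR-142a-5p) and 2 on none (miR-150-5p and miR-155-5p). The 5 detected ones entered the fit of 385 miRNAs, for which 1 group had to detect a miRNA on both of its arrays. With the main scaling, 4 of these 5 were higher in cKO than in WT footpads over both stages, 0 were lower and miR-142a-5p did not pass. Over all tested miRNAs 45.7% were higher and 14.5% lower in this comparison. The median change of the 5 was 0.31 on the log2 scale, and that of all 385 was 0.17. miR-342-3p had the largest increase of all 385 miRNAs, whereas the other 4 lay at 0.0496 to 0.37, among the bulk of all miRNAs. Set against the median of the 385, the changes were 0.87 for miR-342-3p, 0.20 for miR-146a-5p, 0.14 for miR-223-3p, 0.0467 for miR-142a-3p and −0.12 for miR-142a-5p.

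**Figure D1:**
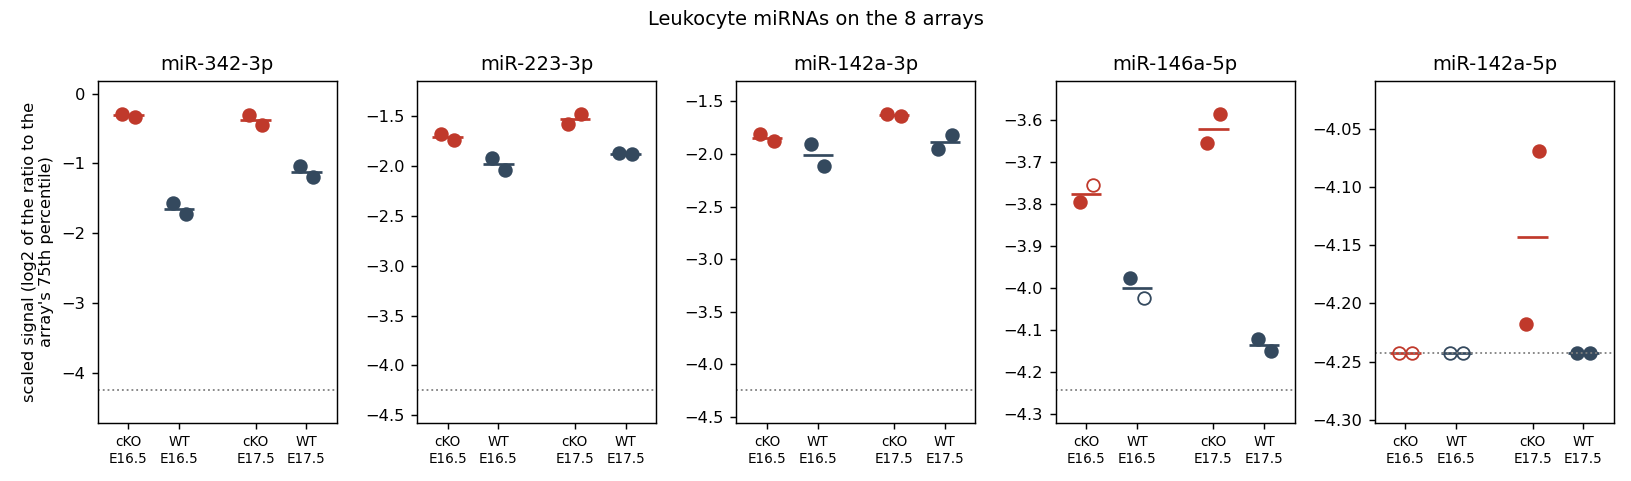
Scaled signal of the 5 tested leukocyte miRNAs on each array (y axis, log2 of the ratio to the array's 75th percentile, with its own range in each panel), for cKO (red) and WT (dark) at E16.5 and E17.5. Each point is 1 array, filled where the miRNA was detected and open where it was not; the bar is the mean of 2 arrays and the dotted line the floor at −4.24. The 4 cKO arrays lie above the 4 WT arrays for miR-342-3p, miR-223-3p and miR-146a-5p with the main scaling. This was so for 25.5% of all 385 tested miRNAs. miR-142a-5p leaves the floor only on the E17.5 cKO arrays.

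**Figure D2:**
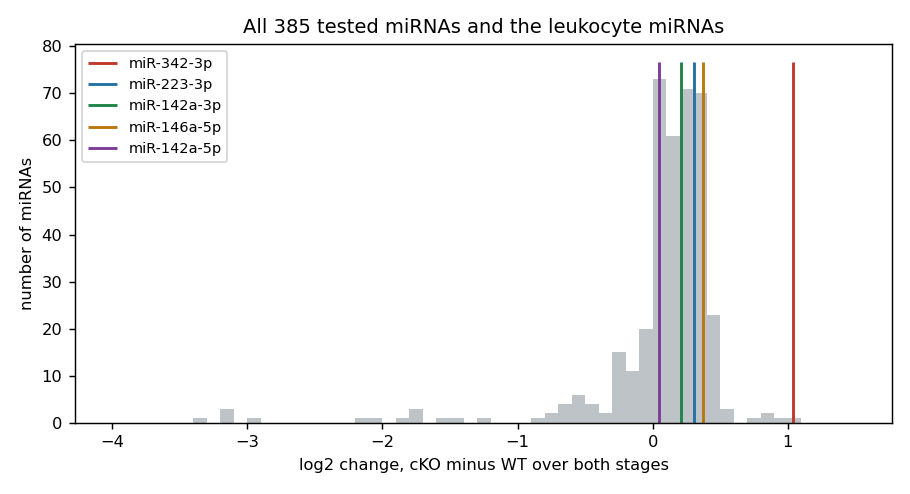
Number of miRNAs (y axis) by log2 change of cKO minus WT over both stages with the main scaling (x axis, bins of 0.1), for all 385 tested miRNAs in grey, with a coloured line at each leukocyte miRNA. miR-342-3p stands at the upper end at 1.04, and the other 4 lie inside the main peak between 0.0496 and 0.37.

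mmu-miR-342-3p was the leukocyte miRNA that differed most between genotypes. At E16.5 it stood at 81.5% and 79.5% of the 75th percentile in cKO footpads and at 33.7% and 30.2% in WT footpads. At E17.5 it stood at 81.0% and 73.2% in cKO and at 48.8% and 43.5% in WT. The groups did not overlap at either stage, the 4 cKO arrays lay close together, and the lowest values were those of E16.5 WT. Both cKO arrays lay above both WT arrays for 56.1% of all tested miRNAs at E16.5 and for 55.3% at E17.5.

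Over both stages miR-342-3p rose by 1.04 ± 0.063 on the log2 scale, a 2.05-fold higher level in cKO than in WT (SE, 4 arrays per genotype, limma adjusted p = 1.89e-04). At E16.5 the increase was 1.34 ± 0.0892, or 2.52-fold (limma adjusted p = 4.16e-04), again the largest of all 385 miRNAs. At E17.5 it was 0.74 ± 0.0892, or 1.67-fold (limma adjusted p = 0.00226), the fifth largest. This last call was lost with all-probe (0.41), without (0.35) and with control-probe scaling (0.30). The difference between the stages was −0.59 ± 0.126 and did not pass (limma adjusted p = 0.0746). It passed with quantile scaling (−0.64, limma adjusted p = 0.0319) and with normexp background correction (−0.35, limma adjusted p = 0.0491).

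The order of the 4 groups for miR-342-3p was cKO E16.5, cKO E17.5, WT E17.5 and WT E16.5 from high to low. The cKO groups were not told apart, at −0.0643 ± 0.0892 for E17.5 minus E16.5 (limma adjusted p = 0.601). In WT footpads miR-342-3p rose with stage by 0.53 ± 0.0892 (limma adjusted p = 0.0249), a call lost when any of 5 arrays was left out, with limma adjusted p of 0.0528 to 0.102. These were both E16.5 cKO arrays, the second E16.5 WT array and both E17.5 WT arrays, and the change itself was 0.45 to 0.61. A fit of the WT arrays alone did not call it (limma adjusted p = 0.12). Both probes of miR-342-3p gave the same picture. They pair with bases 8 to 23 and 7 to 23 of the miRNA and so leave most of the seed unread. The change over both stages was 1.04 with the longer and 1.00 with the shorter probe, and spots of a probe varied by 3.47% to 9.73% (coefficient of variation).

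miR-342-5p, the other arm of the Evl-encoded hairpin, was detected on 0 of 8 arrays. Its signal was 8.46 and 6.34 units at E16.5 and 9.70 and 8.16 units at E17.5 in cKO, against 2.74 and 5.00 units at E16.5 and 5.35 and 7.02 units at E17.5 in WT. These values are under the floor on every array and carry no test.

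mmu-miR-223-3p was moderately higher in cKO footpads with the main scaling. At E16.5 it stood at 31.1% and 30.0% of the 75th percentile in cKO and at 26.4% and 24.3% in WT. At E17.5 it stood at 33.3% and 35.8% in cKO and at 27.3% and 27.1% in WT. The 4 cKO arrays lay above the 4 WT arrays, as they did for 25.5% of all tested miRNAs. The increase over both stages was 0.31 ± 0.0427, or 1.24-fold (limma adjusted p = 0.00269). It was 0.27 ± 0.0604 at E16.5 (limma adjusted p = 0.0201) and 0.34 ± 0.0604 at E17.5 (limma adjusted p = 0.00806). The call at E16.5 was lost without the first cKO array of that stage (limma adjusted p = 0.0903) and without the second WT array (limma adjusted p = 0.0565), and that at E17.5 without the second WT array (limma adjusted p = 0.0504). Fitting only E16.5 arrays lost the call at that stage too (limma adjusted p = 0.0924). The second probe of miR-223-3p gave 0.33 over both stages.

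The hairpin of miR-142a, active throughout the blood lineages, was detected on all 8 arrays through its 3p arm and on 4 arrays through its 5p arm. mmu-miR-142a-3p stood at 28.5% and 27.3% in cKO and at 26.7% and 23.1% in WT at E16.5. At E17.5 it stood at 32.5% and 32.2% in cKO and at 25.9% and 28.3% in WT. Within each stage both cKO arrays lay above both WT arrays with the main scaling. The same held for 56.1% of all tested miRNAs at E16.5 and for 55.3% at E17.5. Across the stages the lower E16.5 cKO array lay below the higher E17.5 WT array. Without scaling the signals of the genotypes overlapped within both stages. With the main scaling, and no other, miR-142a-3p was called higher over both stages, by 0.21 ± 0.0606, or 1.16-fold (limma adjusted p = 0.0309). The stages taken alone gave 0.17 ± 0.0856 at E16.5 (limma adjusted p = 0.160) and 0.26 ± 0.0856 at E17.5 (limma adjusted p = 0.0610). The call over both stages was lost when any 1 of 5 arrays was left out, with limma adjusted p of 0.0613 to 0.0957. These 5 were all cKO arrays and the first E17.5 WT array. It was also lost with outlier spots kept (limma adjusted p = 0.0560), while the E17.5 change passed with normexp background correction (0.24, limma adjusted p = 0.0042) and with the mean of both probes (0.29, limma adjusted p = 0.0408).

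miR-142a-5p was not detected at E16.5, where 5 of 15 and 0 of 15 spots of its brighter probe were well above background in cKO and likewise 5 of 15 and 0 of 15 in WT. At E17.5 these were 14 of 14 and 11 of 15 spots in cKO and 14 of 15 and 14 of 14 in WT. Its E17.5 level was 5.38% and 5.96% of the 75th percentile in cKO, just over the floor, and 4.37% and 4.47% in WT, under the floor. The fitted change at E17.5 of 0.0992 ± 0.047 did not pass (limma adjusted p = 0.158). Since the WT arrays were set to the floor, this value understates the difference in scaled level. Without scaling the signals at E17.5 were 21.9 and 22.3 units in cKO and 21.9 and 23.3 units in WT. The change was then −0.0308, and it was −0.0808 with control-probe scaling.

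mmu-miR-146a-5p, the NF-κB-induced miRNA, lay near the detection limit. It stood at 7.19% and 7.40% in cKO and at 6.35% and 6.14% in WT at E16.5. At E17.5 it stood at 7.93% and 8.32% in cKO and at 5.74% and 5.64% in WT. With the main scaling all 4 cKO arrays lay above all 4 WT arrays, with the widest gap at E17.5. The same held for 25.5% of all tested miRNAs. Without scaling the genotypes overlapped, with E16.5 signals of 20.7 and 21.3 units in cKO and 25.3 and 17.46 units in WT. miR-146a-5p was called detected on 6 of 8 arrays. The exceptions were the second E16.5 arrays of cKO, with 2 of 14 spots well above background, and of WT, with 2 of 15.

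With the main scaling the increase of miR-146a-5p over both stages was 0.37 ± 0.023, or 1.29-fold (limma adjusted p = 2.00e-04). It was 0.22 ± 0.0326 at E16.5 (limma adjusted p = 0.00521) and 0.51 ± 0.0326 at E17.5 (limma adjusted p = 3.30e-04). None of these calls held with all-probe, no or control-probe scaling, where the change was 0.0823, 0.00745 and 0.00564 over both stages and −0.0188, −0.11 and −0.0649 at E16.5. The E16.5 call was also lost with quantile scaling (0.0421, limma adjusted p = 0.605). The difference between the stages, 0.29 ± 0.0461, did not pass (limma adjusted p = 0.0625). It passed without the second E16.5 cKO array (limma adjusted p = 0.0410) and without the first E17.5 cKO array (limma adjusted p = 0.0484). In cKO footpads miR-146a-5p rose between the stages by 0.15 ± 0.0326 (limma adjusted p = 0.0253), while in WT the change of −0.14 ± 0.0326 did not pass (limma adjusted p = 0.0543). The cKO stage call was lost with either E16.5 cKO array, the second E17.5 cKO array or either E17.5 WT array left out, with limma adjusted p of 0.0507 to 0.0931, and in a fit of the cKO arrays alone (limma adjusted p = 0.0816). The result rests on 1 probe, since the other probe was detected on 0 arrays and lay at the floor throughout. When the probes were averaged the change over both stages was 0.0148 (limma adjusted p = 0.430), and with normexp background correction it was 0.18 (limma adjusted p = 0.0503). With the floor at the 25th percentile of detected probes it lay at the floor on every array. Whether miR-146b-5p, alike at 20 of 22 bases, adds to this signal was not tested; its own probes were not detected on any array.

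The miRNAs of mature lymphocytes and of activated cells gave no signal that could be compared. miR-150-5p reached at most 7.74 units in cKO (E17.5) and 7.58 units in WT (E17.5) on its brighter probe. miR-155-5p reached at most 8.14 units in cKO (E17.5) and 7.73 units in WT (E16.5). Both were detected on 0 of 8 arrays and lay under the floor of 5.28% of the 75th percentile on each. The floor is set on the probe signal and does not bound the amount of a miRNA. No spot of the brighter miR-150-5p probe was well above background on any array (0), and 1 spot of the brighter miR-155-5p probe was, on the first E16.5 WT array. The opposite arms miR-223-5p, miR-146a-3p, miR-150-3p and miR-155-3p were likewise detected on 0 of 8 arrays.

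**Figure D3:**
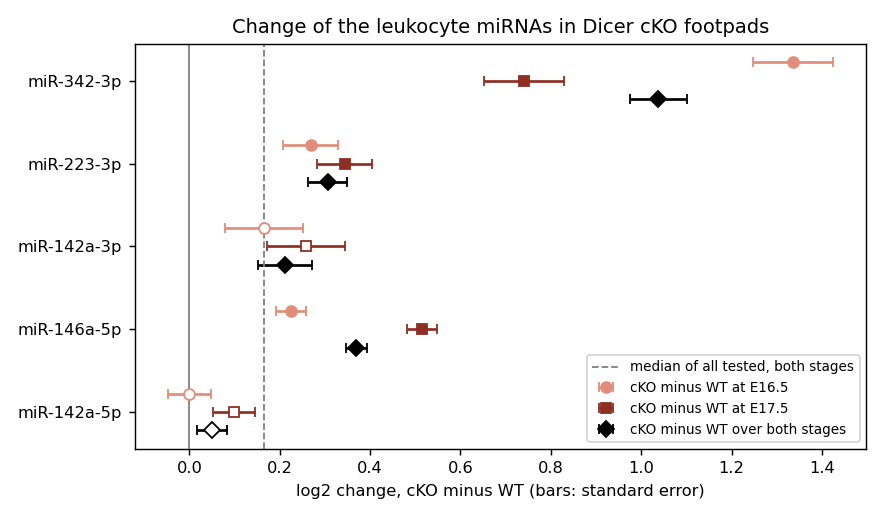
Log2 change of cKO minus WT with the main scaling (x axis) for the 5 tested leukocyte miRNAs at E16.5 (circles), at E17.5 (squares) and over both stages (diamonds). Bars are standard errors of the limma fit, filled symbols passed at an adjusted p of 0.05, and the dashed line is the median of all 385 tested miRNAs over both stages at 0.17. miR-342-3p lies at 0.74 to 1.34, and the diamond of miR-142a-3p at 0.21 is next to the dashed line.

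By stage, 3 of 5 leukocyte miRNAs were higher in cKO at E16.5, against 35.8% of all tested miRNAs, and 3 of 5 at E17.5, against 35.8% as well. At both stages these were miR-342-3p, miR-223-3p and miR-146a-5p. The median change of the 5 was 0.22 at E16.5, where that of all tested miRNAs was 0.19, and 0.34 at E17.5, where that of all was 0.13. With the main scaling, within E16.5 both cKO arrays lay above both WT arrays for 4 of the 5, and for 56.1% of all tested. Within E17.5 they did so for 5 of 5, and for 55.3% of all tested, with both WT arrays at the floor for miR-142a-5p. Without scaling this held at E16.5 for miR-342-3p only, and at E17.5 for miR-342-3p and miR-146a-5p only. The genotype effect differed between stages for 0 of 5 by the limma fit, against 1.56% of all tested miRNAs; miR-342-3p and miR-146a-5p lay below an unadjusted p of 0.05, as did 106 of the 385. From E16.5 to E17.5, 1 of 5 passed in cKO (miR-146a-5p, against 35.3% of all in either direction) and 1 of 5 in WT (miR-342-3p, against 14.8%).

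Which increases passed depended on how the arrays were put on one scale, except for miR-342-3p over both stages and at E16.5. The change of miR-342-3p over both stages was 1.01 with quantile, 0.96 with median and 0.76 with all-probe scaling, 0.73 unscaled and 0.67 scaled to the control probes, and passed each time (limma adjusted p of 8.58e-05 to 0.0324). At E16.5 it also passed under all 6 scalings, at 1.05 to 1.34, and at E17.5 under 3 of them. The E16.5 pass was narrow with all-probe scaling (limma adjusted p = 0.0408) and at the threshold without scaling (limma adjusted p = 0.04996). The median of all tested miRNAs moved with the scaling, to 0.11, 0.0986, −0.0657, −0.0922 and −0.13 in the same order. Relative to that median, miR-342-3p at E17.5 stood at 0.52 to 0.61 under the 6 scalings. Every scaling but quantile moves all miRNAs of an array and their median alike, apart from the floor. Values relative to the median are thus nearly fixed beforehand, and their steadiness is no check of the result.

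miR-223-3p was at 0.26 with quantile and 0.23 with median scaling and passed, but it was at 0.0262, −0.00021 and −0.0578 with the last 3 scalings and passed under none of them. miR-146a-5p passed with quantile (0.21) and median scaling (0.29). miR-142a-3p did not pass under any scaling other than the main one, and lay at −0.0683, −0.0947 and −0.15 with the last 3. miR-142a-5p passed with quantile scaling alone, at 0.0979 over both stages (limma adjusted p = 0.0130) and at 0.20 at E17.5 (limma adjusted p = 0.00533). Set against the median of all miRNAs, miR-223-3p lay at 0.0723 to 0.15 and miR-146a-5p at 0.0996 to 0.20 under the 6 scalings. miR-142a-3p lay between −0.0222 and 0.0614. These values too are nearly fixed beforehand, since the median moves with the miRNAs. Of all calls among the 385, increases made up 75.9% with the main, 69.3% with the quantile and 67.2% with the median scaling, but 10.2% with the all-probe scaling, 10% without scaling and 4.76% on the scale of the control probes.

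**Figure D4:**
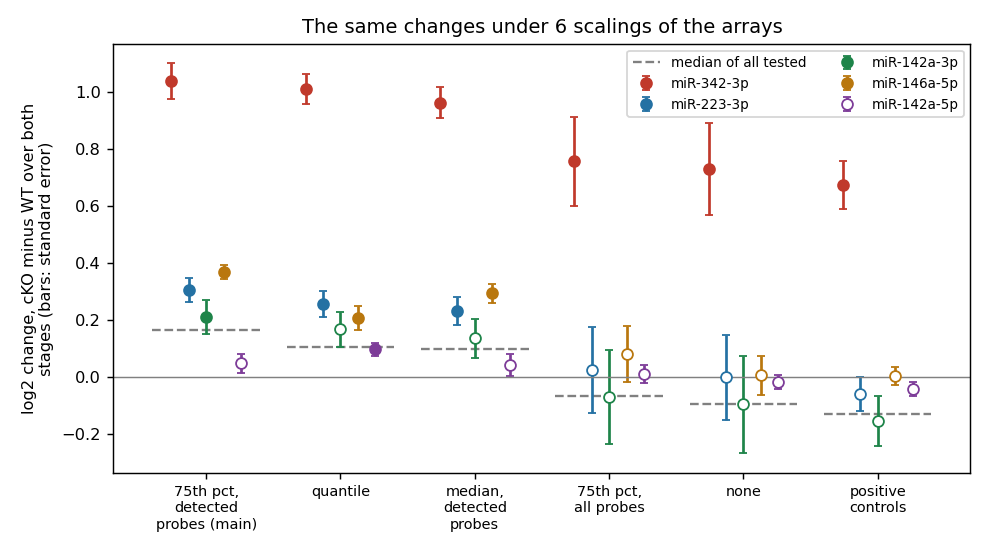
Log2 change of cKO minus WT over both stages (y axis) for the 5 tested leukocyte miRNAs under 6 scalings of the arrays (x axis). Bars are standard errors, filled points passed at an adjusted p of 0.05, and dashed lines are the median of all tested miRNAs under each scaling. miR-342-3p stays between 0.67 and 1.04, while miR-223-3p, miR-142a-3p and miR-142a-5p lie above 0 with the main scaling and below 0 with control-probe scaling.

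Across the 8 arrays the 3 miRNAs detected throughout varied together to different degrees, with Pearson r of 0.92 between miR-142a-3p and miR-223-3p, 0.88 between miR-223-3p and miR-342-3p and 0.74 between miR-142a-3p and miR-342-3p. All miRNAs on an array share its scaling and the 4 group differences, so these values describe the arrays and carry no test. Among 260 candidates detected on all 8 arrays, the profile of miR-342-3p was most like those of miR-335-5p (r = 0.955), miR-379-5p (r = 0.947) and miR-379-3p (r = 0.943). The increases of these over both stages were 0.41, 0.43 and 0.51, smaller than that of miR-342-3p. miR-223-3p was most like miR-497a-5p (r = 0.979), miR-362-3p (r = 0.974) and miR-199b-5p (r = 0.973). miR-142a-3p was most like miR-100-5p (r = 0.979), miR-26b-5p (r = 0.957) and miR-369-5p (r = 0.951). None of the profiles nearest to one leukocyte miRNA was that of another.

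Of 10 further miRNAs linked to leukocytes but also made elsewhere, 8 were tested, and over both stages 4 were higher and 2 lower in cKO with the main scaling, against 1 higher and 4 lower with control-probe scaling. Their median change was 0.0441, against 0.17 for all tested miRNAs. miR-181a-1-3p, the passenger arm of a miR-181 hairpin active in lymphoid precursors, stood at 10.7% and 10.8% at E16.5 and 10.6% and 11.3% at E17.5 in cKO, against 5.75% and 5.22% at E16.5 and 6.16% and 5.41% at E17.5 in WT. It rose by 0.94 ± 0.0542 (limma adjusted p = 1.53e-04), after miR-342-3p the second largest increase of all 385, and was not detected on the second E16.5 WT array. miR-212-3p rose by 0.31, miR-181a-5p by 0.20 and miR-181b-5p by 0.0881. miR-181b-5p was at −0.0273 at E16.5, which did not pass, and rose by 0.20 at E17.5. miR-425-5p fell by 0.24 and miR-652-3p by 0.091. miR-652-3p fell by 0.22 at E16.5 and was at 0.0393 at E17.5, which did not pass. At E16.5, 2 of the 8 were higher and 3 lower with the main scaling, against 138 higher and 58 lower of all 385. The lower ones were miR-425-5p, miR-652-3p and miR-181d-5p. miR-181d-5p stood at 52.1% and 52.0% in cKO and at 60.2% and 57.6% in WT at E16.5. At E17.5 it stood at 48.6% and 49.9% in cKO and at 51.7% and 47.2% in WT, which overlap. miR-146b-5p and miR-191-5p were not detected on any array.

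Red cell miRNAs were read as markers of blood in the tissue. Of 5 listed, 3 were detected, and miR-144-5p and miR-486a-3p were not. miR-451a stood at 382% and 364% at E16.5 and 399% and 356% at E17.5 in cKO, against 357% and 232% at E16.5 and 331% and 402% at E17.5 in WT. Its change over both stages was 0.21 ± 0.157 (limma adjusted p = 0.301), and that of miR-144-3p was −0.22 ± 0.166 (limma adjusted p = 0.306). miR-486a-5p rose by 0.31 ± 0.0781 (limma adjusted p = 0.0205) with the main scaling. By stage 1 of the 3 was called higher at E16.5 and 0 at E17.5, against 35.8% of all tested miRNAs at each stage. Under quantile, all-probe, no and control-probe scaling 0 of the 3 were called higher, and with control-probe scaling 1 was called lower. The summed level of the list, most of it miR-451a, was 390% to 437% in cKO and 262% to 446% in WT, so that the genotypes overlapped.

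**Figure D5:**
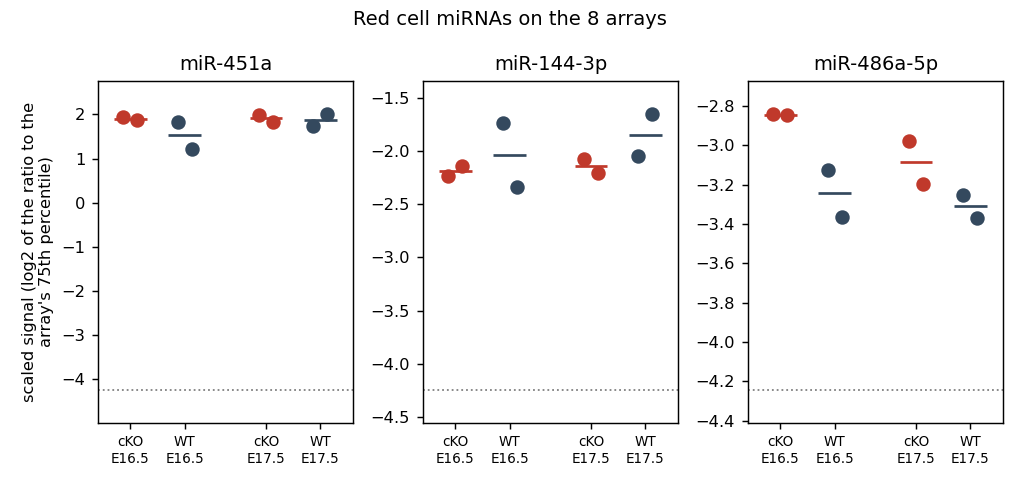
Scaled signal of the 3 detected red cell miRNAs on each array (y axis, log2 of the ratio to the array's 75th percentile, with its own range in each panel), for cKO (red) and WT (dark) at E16.5 and E17.5. Each point is 1 array, the bar is the mean of 2 arrays and the dotted line the floor. cKO and WT arrays overlap across the 2 stages in all 3 panels, miR-486a-5p included, and the second E16.5 WT array is the lowest of the 8 for miR-451a at 232%.

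Markers of other cell types moved between the genotypes at the same time. The 7 of 7 epithelial miRNAs were lower in cKO, with a median change of −3.12 and a summed level of 258% to 401% in cKO and 2629% to 3120% in WT. With the main scaling 6 of 6 dermal mesenchyme miRNAs were higher (median 0.37, summed level 6357% to 6925% in cKO and 4841% to 5532% in WT). So were 2 of 2 endothelial miRNAs (median 0.44, summed level 201% to 254% in cKO and 156% to 191.2% in WT) and 4 of 4 skeletal muscle miRNAs (median 0.34, summed level 619% to 761% in cKO and 508% to 597% in WT). With all-probe, no and control-probe scaling none of these mesenchyme, endothelial and muscle miRNAs (0) was called higher or lower, while the epithelial ones were lower in 7 of 7 under all 6 scalings. With the main scaling the increases of miR-223-3p (0.31), miR-142a-3p (0.21) and miR-146a-5p (0.37) were no larger than these medians, except that miR-146a-5p exceeded that of muscle, and that of miR-342-3p (1.04) was larger than all of them. The part of these shifts in the changes of the leukocyte miRNAs was not tested.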

How the data were processed

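The authors extracted the array images with Agilent Feature Extraction 11.5.1.1, per the file headers, and deposited for each of 56430 spots per array a background-subtracted intensity on a linear scale, without scaling between arrays. The deposited value table holds the same intensity (within 0.02 for 100% of spots with a signal above 0) and a constant of 2.90 to 5.12 per array for the rest. It is on the linear scale, uncentred, and higher numbers mean more miRNA.

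Spots with an outlier mark (2.84% to 6.02% per array) were left out, 0 spots were saturated, and the spots of a probe were averaged. Each array was scaled to its 75th percentile over 474 probes that all arrays detected (284 to 521 units), floored at the 5th percentile of detected probes, and taken to log2. A probe was detected where over 50% of its spots were well above background, and a miRNA where any of its probes was. Each of 1881 miRNAs (4415 probes) was represented by its brightest probe, and the 385 detected on both arrays of a group were tested. limma 3.58.1 in R 4.3.3 (4 group means, eBayes with trend, 4 residual and 1.08 prior degrees of freedom) gave Benjamini-Hochberg adjusted p-values over the 385 within each of 6 contrasts, with 0.05 as the threshold. The procedure was tested on simulated data. Figures were drawn with matplotlib 3.10.9 in Python 3.11.15. The number of arrays limits the precision. The leukocyte miRNAs, the companion lists and the naming rule were chosen with earlier results of these data known. The miRNAs named are the 7 members, their opposite arms, the 3 most correlated miRNAs of each member detected on all arrays, and the companion miRNAs that passed or share a seed, and red cell and undetected companions are named to complete their lists. Arrays with the same replicate number share a slide row.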

Additional observations from a re-analysis of the deposited data

How the results depend on the processing

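Of the alternatives to the processing, a fit without a filter on dim miRNAs could not be made, because 1495 miRNAs lay at the floor on all arrays and had no spread. Over both stages the change of miR-342-3p kept its direction and passed under every alternative run, at 0.67 to 1.08, and at 1.00 to 1.08 with 1 array left out. The cause of each change given here was not tested. With all-probe, no and control-probe scaling the leukocyte miRNAs higher in cKO numbered 1 for the stages combined, 1 for E16.5 and 0 for E17.5 under each. Of all 385 miRNAs, 5, 6 and 7 were higher for the stages combined, 4, 4 and 7 for E16.5 and 4, 4 and 3 for E17.5. With 1 array left out the leukocyte miRNAs higher in cKO numbered 3 to 4 for the stages combined, 2 to 3 for E16.5 and 2 to 4 for E17.5. The stage difference was called for 1 member with quantile scaling, normexp background or the replicate block, and for 0 to 2 with 1 array left out.

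From E16.5 to E17.5 in cKO, 4 members were called with quantile scaling, 2 with the lower floor and 0 with median or all-probe scaling, normexp, outlier spots kept, the mean of probes, only miRNAs detected on all arrays, the higher floor or only cKO arrays, and 0 to 2 with 1 array left out. Of all 385, 108 were higher and 67 lower with quantile, 41 and 78 with median and 2 and 4 with all-probe scaling. In WT, 5 were called without scaling, 2 with control-probe scaling, 0 with all-probe scaling or only WT arrays, and 0 to 1 with 1 array left out. Of all 385, 4 were lower in WT without scaling and increases made up 97.8% of the calls, and 71 were higher and 7 lower with control-probe scaling.

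Directions turned as follows in the order all-probe, no and control-probe scaling. miR-142a-3p was at −0.0683, −0.0947 and −0.15 for the stages combined, −0.0634, −0.059 and −0.12 at E16.5 and −0.0732, −0.13 and −0.18 at E17.5. miR-146a-5p was at −0.0188, −0.11 and −0.0649 at E16.5. With no and control-probe scaling miR-142a-5p was at −0.0154 and −0.0404 over both stages and −0.0308 and −0.0808 at E17.5, and miR-223-3p at −0.00021 and −0.0578 over both stages and −0.0446 and −0.0946 at E17.5, and at E16.5 at −0.0209 with control-probe scaling. The stage change of miR-342-3p in cKO was 0.21, 0.38 and 0.0327, and with 1 array left out −0.14 to 0.00891, this value without the second E17.5 cKO array. That of miR-146a-5p in WT was 0.23, 0.36 and 0.11, and 0.0469 with quantile scaling. The stage difference of miR-142a-3p was −0.00982, −0.0715 and −0.0565, and −0.0318 with median scaling. That of miR-223-3p was −0.0271, −0.0887 and −0.0737, and −0.0491 with median scaling, and that of miR-142a-5p −0.0308 and −0.0808 with no and control-probe scaling. With normexp background miR-146a-5p was at −0.00691 for the stage difference and at −0.19 for the stage change in cKO. With the higher floor miR-146a-5p lay at the floor on all arrays and its changes were 0. Arrays with the same replicate number deviated from their group means with correlations of −0.14 to 0.28 and were not treated as pairs. Blocking on that number, the stage difference of miR-342-3p passed (limma adjusted p = 0.0383) and the change of miR-142a-3p over both stages did not (limma adjusted p = 0.0507).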
